A study of Mus musculus with 2 samples.

Results

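Malat1, Neat1 and Kcnq1ot1 are long noncoding RNAs that stay in the nucleus. They are described here together with Rsrp1, F630028O10Rik and Meg3, 6 of the 55450 genes in the tables, of which 25984 had at least 1 unique molecular identifier (UMI, the tag that marks 1 captured RNA molecule). The genes were picked by symbol because 5 of them were higher in the knockout library in earlier results of these data, so every ratio between the libraries below describes the choice and carries no test. Meg3 is the exception: it had 1 UMI in each library, from 6706 and 6315 barcodes, and could not be measured. The cells were F4/80+ cells sorted from the peritoneal lavage of mice without Ankrd22 (Ankrd22-/-, made with CRISPR/Cas9) and of Ankrd22+/+ mice. F4/80 is a surface protein of mouse macrophages. Each genotype had 1 single-cell library, so no comparison between genotypes has a replicate, and genotype, library and handling cannot be told apart. The libraries shared 15 cell barcodes (0.224% and 0.238%). The number, age, sex and strain background of the mice are not given in the sources used here. Ankrd22 itself had 0 UMIs in both libraries, so its level does not check the labels.

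Malat1 gathers in nuclear speckles, bodies rich in splicing factors. Neat1 is the scaffold of paraspeckles, which form beside speckles around its long form. Kcnq1ot1 is transcribed from the paternal allele across the Kcnq1 locus and silences neighbouring imprinted genes. Meg3 is a maternally expressed noncoding RNA of the Dlk1 to Dio3 imprinted domain. Rsrp1 encodes an arginine and serine rich protein and is the only protein-coding gene of the group. F630028O10Rik is the host transcript of the myeloid microRNA miR-223. The counts are of whole cells and hold nothing on where in a cell an RNA lay.

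All positions are those of GRCm38 in GENCODE M21, whose gene identifiers matched all 55450 of the tables. Malat1 (ENSMUSG00000092341, chr19:5795690-5802672, minus strand) is an unspliced lincRNA of 6983 bases. Neat1 (ENSMUSG00000092274, chr19:5824708-5845478, minus strand) has an unspliced long form of 20771 bases and a spliced short form of 3004 bases. Both lie on chromosome 19, as Ankrd22 does (chr19:34121469-34166053). Kcnq1ot1 (ENSMUSG00000101609, chr7:143203458-143296549, minus strand) is 1 exon of 93092 bases, antisense to Kcnq1. Rsrp1 (ENSMUSG00000037266) is at chr4:134923592-134927671 on the plus strand, and 1 of its 8 annotated transcripts retains an intron. F630028O10Rik (ENSMUSG00000078122) is at chrX:96239926-96243636 and Meg3 (ENSMUSG00000021268) at chr12:109541001-109571726, both on the plus strand.

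The 3' ends are shown because the chemistry primes on runs of A, while Malat1 and the long form of Neat1 end without a poly(A) tail. Their ends are instead known to fold into a triple helix between stretches of U and an encoded stretch of A. Capitals mark, in the first pair of sequences, the 3 longest stretches shared in the same order by the last 400 bases of Malat1 and the last 100 of the long form of Neat1. In the short form of Neat1 they mark the signal AATAAA, and in Kcnq1ot1 its longest run of A.
Malat1, chr19:5795982-5796070, exon 1, minus strand: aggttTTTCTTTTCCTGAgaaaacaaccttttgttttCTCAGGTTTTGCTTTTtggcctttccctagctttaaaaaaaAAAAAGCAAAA
Neat1 long form, chr19:5824708-5824802, exon 1, minus strand: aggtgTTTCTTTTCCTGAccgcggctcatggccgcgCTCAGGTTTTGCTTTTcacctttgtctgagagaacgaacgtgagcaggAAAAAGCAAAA
Neat1 short form, chr19:5842307-5842366, exon 2, minus strand: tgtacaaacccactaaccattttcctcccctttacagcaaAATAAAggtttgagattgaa
Kcnq1ot1, chr7:143226915-143227015, exon 1, minus strand: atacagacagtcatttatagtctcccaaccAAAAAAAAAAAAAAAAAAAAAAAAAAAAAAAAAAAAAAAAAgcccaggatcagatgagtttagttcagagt

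The shared stretches were searched on the transcript strand of all 141767 GENCODE M21 transcripts. TTTCTTTTCCTGA was in 35 of them (0.0247%) and AAAAAGCAAAA in 618 (0.436%). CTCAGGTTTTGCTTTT was in 2 (0.00141%), Malat1 and the long form of Neat1, which were also the 2 that held all 3 stretches in order with at most 100 bases between neighbours. In the long form of Neat1 the last stretch closes the annotated transcript, and in Malat1 it lies 292 bases before the annotated end. A run of at least 10 A was found in 7.18% of all transcripts, at 0.052 runs per kb. Malat1 had 1 such run, of 12 A, and neither form of Neat1 had any. Kcnq1ot1 had 10 such runs, 0.107 per kb, and the longest, of 41 A, lies 23487 bases before the annotated end. Where along an RNA its UMIs fell is not recorded in the counts.

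F630028O10Rik is shown by the microRNA it carries, with the seed (bases 2 to 8) in capitals. The sequence and its position are those of RefSeq (GRCm38.p6), and the same bases lie in the last exon of both annotated transcripts of the host.
mmu-miR-223-3p, chrX:96242884-96242905, plus strand: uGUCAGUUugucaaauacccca
The UMIs of F630028O10Rik count the host transcript and give no level of the mature microRNA.

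The knockout library held 110956482 UMIs and the wild type library 96869041, with medians of 15790.5 and 14569 per barcode. After filters on genes, mitochondrial UMIs and doublets, 6036 knockout and 5946 wild type cells were kept. Adgre1, which encodes F4/80, was at 631 and 698.6 CPM (UMIs scaled to a library sum of 1000000) in the knockout and wild type cells of the main class, and Gata6, the factor that marks large peritoneal macrophages, was at 174.3 and 157.9 CPM. Large-macrophage-like cells made up 5540 knockout and 4867 wild type cells, small-macrophage-like cells 316 and 792, cycling cells 141 and 248, and B-cell-like cells, whose cluster also held T cell genes, 39 and 39. The size of the small class depended on the clustering settings, as given further on. Within the large class the libraries hardly shared a cluster: knockout cells lay in clusters 0, 1, 5, 7 and 10, and wild type cells in clusters 2, 3, 4, 6 and 12. The libraries also stood apart in mitochondrial share, the percentage of a cell's UMIs from mitochondrially encoded genes. Its median in the large class was 1.49% in knockout cells (5th to 95th percentile 0.95% to 2.24%) and 0.70% in wild type cells (0.0352% to 1.52%), and 0.235% of knockout against 35.6% of wild type cells lay below 0.5%. Levels within bins of that share are given further on, and its part in the ratios was not tested in any other way.

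Malat1 lay at 12255 CPM in the knockout large class and at 4864 CPM in its wild type counterpart. On the log2 scale the ratio was 1.33 (95% counting interval 1.33 to 1.34). Ratios here are of CPM with 1 added to each. Their intervals are of the ratio with nothing added, so a low level lies off their centre, and cover the counting of molecules and not the difference between mice. Neat1 lay at 285 and 90.9 CPM, giving a log2 ratio of 1.64 (1.61 to 1.69). For Kcnq1ot1 the levels were 118 and 29.7 CPM, with a log2 ratio of 1.95 (1.92 to 2.06). Each of these 3 noncoding RNAs was thus more than 2-fold higher in knockout cells. Rsrp1, the protein-coding member, had 248 and 73.0 CPM and a log2 ratio of 1.75 (1.72 to 1.81). F630028O10Rik, the miR-223 host, had 84.1 and 17.5 CPM and the widest ratio of the group, 2.20 (2.26 with nothing added, 2.17 to 2.35).

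These 5 genes passed 2-fold toward the knockout, a mark reached by 93 of the 5033 genes whose higher library had at least 20 CPM (1.85%). Since the genes were chosen on this contrast, nothing is read from that count. Another 104 genes (2.07%) were 2-fold or more lower. The median gene had a log2 ratio of 0.22, and TMM scaling moved every ratio by -0.29, leaving 42 genes higher and 163 lower. The 5 genes were still past 2-fold on that scale. Of the 5033 genes, 34 had a ratio above that of Malat1, 18 above Neat1, 15 above Rsrp1, 11 above Kcnq1ot1 and 7 above F630028O10Rik. Malat1 was thus the member closest to the 2-fold mark, and no measured member lay below it.

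Single cells showed the Malat1 difference along the whole distribution, by the largest fold at its low end, and the libraries overlapped. Per cell, Malat1 ran from 6172 CPM at the 10th percentile through a median of 11916 to 19737 CPM at the 90th in knockout cells. The wild type values were 722, 4061 and 10553 CPM, a spread of 14.6-fold against 3.2-fold among knockout cells. In UMIs, the median large-macrophage-like cell held 189 Malat1 molecules when knockout and 53 when wild type. Of the wild type cells, 67.9% lay below the knockout 10th percentile, and 6.21% lay above the knockout median.

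**Figure D1:**
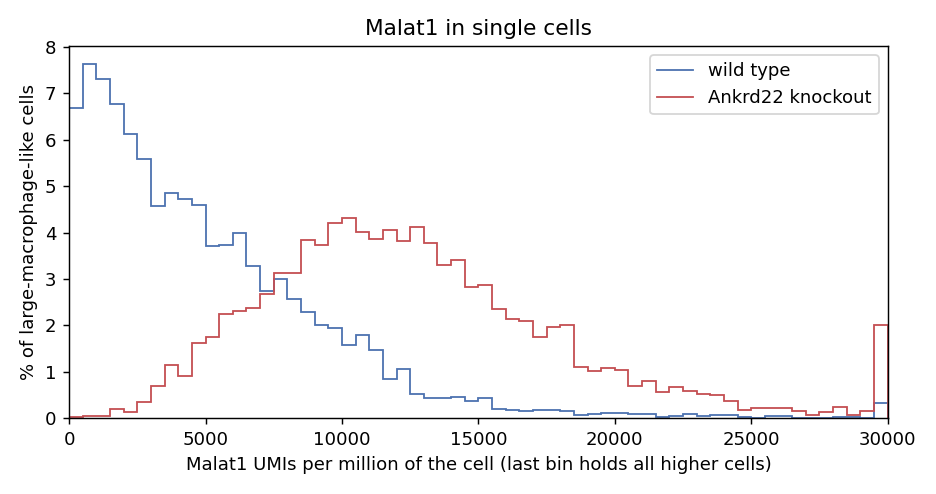
Share of large-macrophage-like cells (vertical axis, %) by the Malat1 level of the cell (horizontal axis, CPM in steps of 500, the last step holding all higher cells) in the wild type (blue, 4867 cells) and knockout library (red, 5540 cells). The wild type cells pile up below 5000 while the knockout cells centre near their median of 11916, and both curves overlap between.

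Shares of cells with a UMI gave the same order of the libraries once depth was made equal. With each cell thinned to 2000 UMIs, which left out 37 knockout and 57 wild type cells of the large class, 100% (exact 95% interval 99.9% to 100%) and 94% (93.3% to 94.7%) of cells still held a Malat1 UMI. For Neat1 the shares were 38.5% (37.3% to 39.8%) and 14.1% (13.1% to 15.1%), and for Kcnq1ot1 17.6% (16.6% to 18.7%) and 5.22% (4.61% to 5.88%). For Rsrp1 they were 38.1% (36.8% to 39.4%) and 13.8% (12.9% to 14.9%), and for F630028O10Rik 15% (14.1% to 16%) and 3.76% (3.24% to 4.34%). Without thinning they were 87.45% and 50.5% for Neat1, 56.9% and 22.6% for Kcnq1ot1, 92.2% and 55.2% for Rsrp1, and 58.5% and 19.5% for F630028O10Rik. A cell type that should lack a transcript gives the level of free RNA in the droplets. B-cell-like cells, which should lack the myeloid miR-223 host, had 0 of 33 knockout and 0 of 37 wild type cells with an F630028O10Rik UMI after thinning, which allows shares of up to 10.6% and 9.49% (upper ends of the exact 95% intervals). The wild type limit lies above the 3.76% of the large class, so free RNA there is not bounded below that share. The knockout limit lies below the 15% of its large class. Before thinning the median depth of B-cell-like cells was 3752 and 4562 UMIs, against 15791 and 14018 in the large class.

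The same direction appeared in every class that could be measured. In small-macrophage-like cells (cluster 11 in knockout and 8 in wild type cells), Malat1 was at 10816 and 4052 CPM, and Neat1 at 238 and 108 CPM with the smallest log2 ratio of the 5, 1.14 (1.04 to 1.25). Kcnq1ot1 was at 111 and 32.0 CPM there, Rsrp1 at 250 and 65.8 CPM and F630028O10Rik at 67.1 and 18.2 CPM. All 5 were past 2-fold, as were 2.98% of the genes tested in that class. In cycling cells, which fell in 1 shared cluster, Malat1 was at its lowest share of UMIs of any class in both libraries, 8364 and 3527 CPM. These were the deepest cells, with medians of 29242 and 21812.5 UMIs. In molecules they held more Malat1 than the large class, 244.7 and 79.3 UMIs per cell against 203.7 and 70.64. Cycling cells held Neat1 at 267 and 83.9 CPM and Kcnq1ot1 at 158 and 30.8 CPM. Rsrp1 had its narrowest ratio of these 3 classes there, 205 and 95.04 CPM (log2 1.10, 0.95 to 1.27), and F630028O10Rik its widest, 67.1 and 9.15 CPM (log2 2.75, or 2.88 with nothing added, 2.44 to 3.34). All 5 were again past 2-fold, beside 3.27% of the genes tested.

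By share of UMIs, B-cell-like cells held more Malat1 and less Neat1 than macrophages of the same library. They were shallower, with medians of 3752 and 4562 UMIs per cell. In molecules they held less Malat1, at 125.3 and 61.03 UMIs per cell, against 203.7 and 70.64 in the large class. Malat1 was at 27297 (26537 to 28073) and 10327 (9916 to 10750) CPM, above every macrophage class of the same library. Neat1 was at 106 (63.9 to 166) and 21.7 (7.04 to 50.6) CPM, from 19 and 5 UMIs, below every macrophage class. Kcnq1ot1 had 34 and 15 UMIs and Rsrp1 32 and 15. F630028O10Rik had 0 and 1 UMI, and the 0, with the limit set at 3 UMIs, allows up to 16.8 CPM, so no ratio is given. The other 4 genes passed 2-fold in these 39 and 39 cells, where 17.9% of genes did, and the lower bounds for Neat1, Kcnq1ot1 and Rsrp1 were log2 ratios of 0.82, 0.63 and 0.53.

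**Figure D2:**
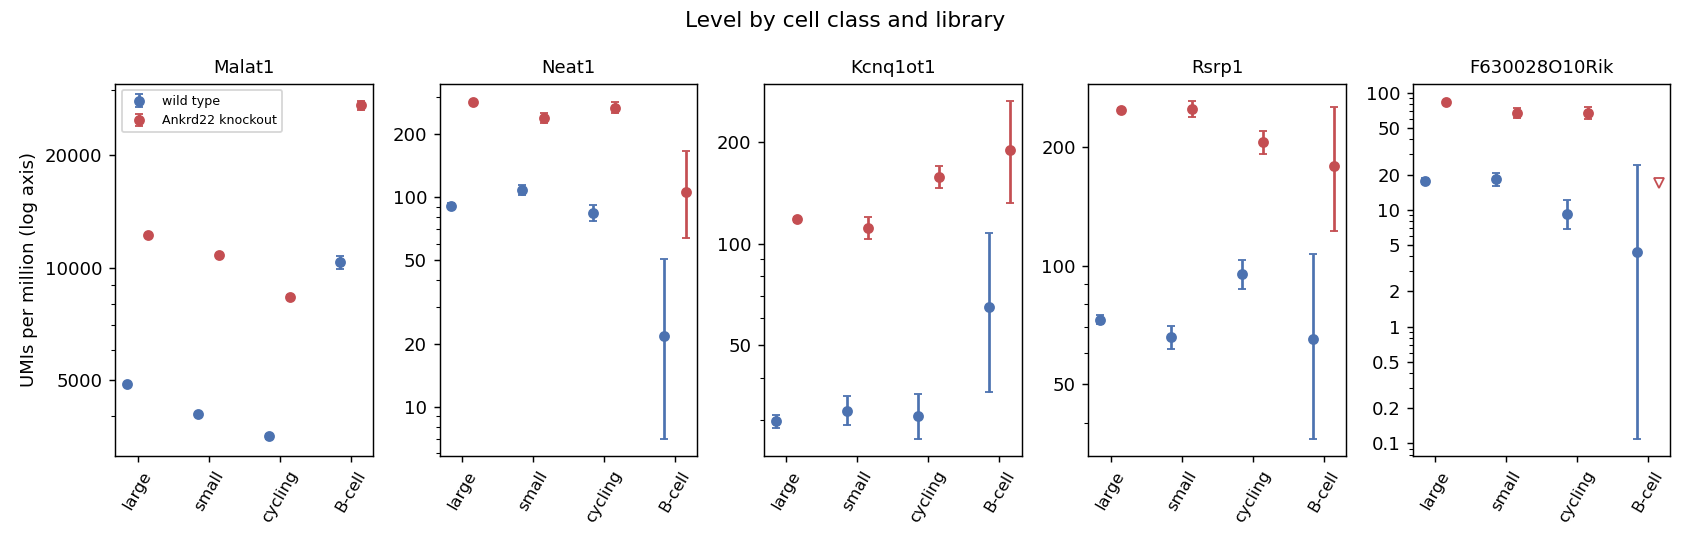
Level of each gene (vertical axis, CPM, log axis) in 4 cell classes of the wild type (blue) and knockout library (red). Bars are exact 95% Poisson intervals of the summed UMIs, and the open triangle, which is no such interval, is the level of 16.8 that 3 UMIs would give where 0 were counted. Red lies above blue in every class, but for F630028O10Rik in B-cell-like cells the red symbol is the triangle, a limit and not a level, so no order is read there. Malat1 is highest and Neat1 lowest in B-cell-like cells.

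Across the 10 clusters of the large class, made without these genes and without mitochondrial genes, Malat1 ranged from 11434 (cluster 0) to 13724 CPM (cluster 1) in knockout cells and from 4137 (cluster 3) to 6045 CPM (cluster 12) in wild type cells. Neat1 varied more inside a library. It ran from 158 CPM in cluster 7, led by the haemoglobin gene Hbb-bs and by Chil3, Arg1 and F630028O10Rik, to 488 CPM in the Marco-led cluster 10 of the knockout, and from 56.1 (cluster 4) to 141 CPM (cluster 2) in the wild type library. The highest wild type and the lowest knockout cluster were thus 141 (136 to 147) and 158 (151 to 165) CPM. Kcnq1ot1 ran from 80.4 (cluster 1) to 182 CPM (cluster 10) and from 22.1 (cluster 4) to 51.7 CPM (cluster 12). F630028O10Rik ran from 65.1 (cluster 5) to 110 CPM (cluster 7) and from 13.2 (cluster 6) to 40.0 CPM (cluster 12).

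Rsrp1 was the 1 gene whose ranges met between the libraries. Its 5 knockout clusters were even, at 241 to 258 CPM, and 4 wild type clusters were at 54.1 to 77.7 CPM. The remaining wild type cluster, number 12 with 220 cells, was at 245 CPM (227 to 264), inside the knockout range. That cluster is led by the heat shock genes Hspa1a, Hspa1b, Hspb1, Bag3 and Dnajb1, with Rsrp1 itself at place 5 of its leading genes. Over the whole large class Hspa1a was at 108.7 and 105.8 CPM. Without cluster 12 the log2 ratio of Rsrp1 was 1.90 in place of 1.75. The cluster also held the highest wild type levels of Malat1, Kcnq1ot1 and F630028O10Rik, and its median mitochondrial share, 0.412%, was the lowest of the wild type large clusters.

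**Figure D3:**
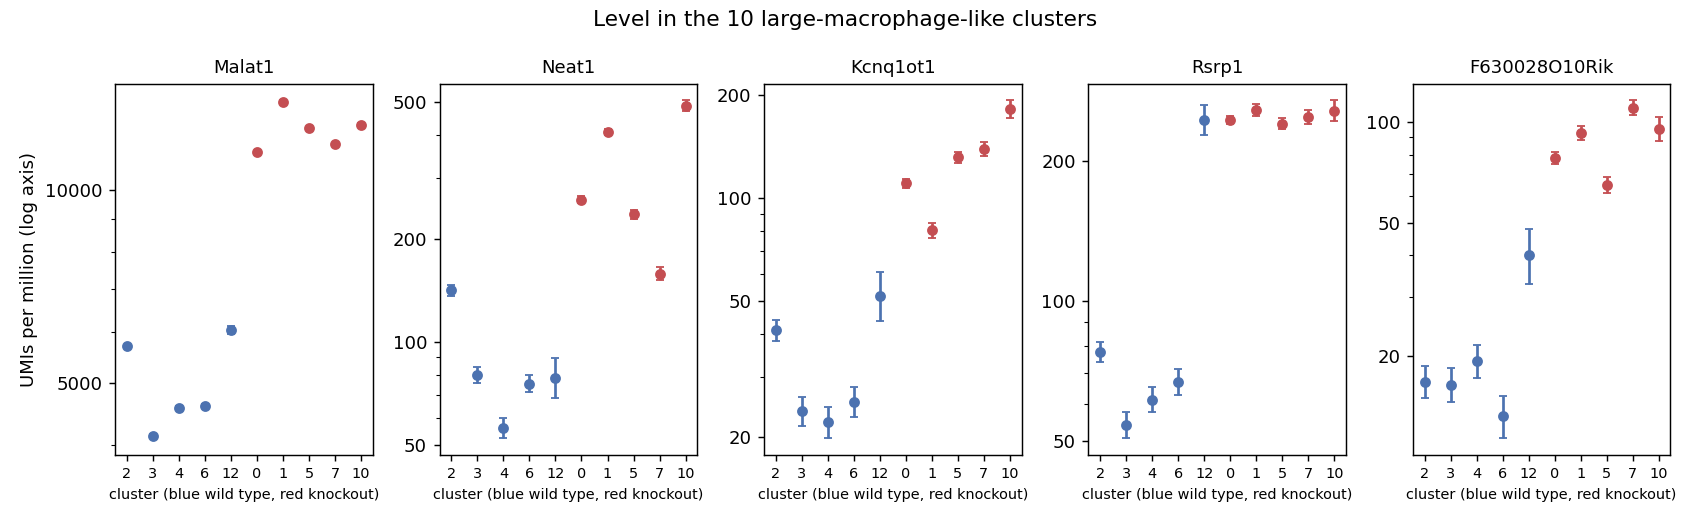
Level of each gene (vertical axis, CPM, log axis) in the 5 wild type (blue) and 5 knockout (red) clusters of large-macrophage-like cells, numbered on the horizontal axis, with exact 95% Poisson intervals. Wild type cluster 12 reaches the knockout clusters for Rsrp1, at 245, and lies between the libraries for F630028O10Rik, at 40.0.

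Mitochondrial share separated the genes within the wild type library. When its large-macrophage-like cells were cut into 5 equal groups by that share (median 0.0834% in the lowest and 1.31% in the highest), Malat1 was at 3184, 4448, 4994, 5439 and 6022 CPM, 1.89-fold from end to end. Neat1 was at 62.5, 71.4, 78.9, 109 and 126 CPM, 2-fold. Kcnq1ot1 was at 20.7, 18.6, 26.4, 35.7 and 44.5 CPM, 2.09-fold. These 3 passed 1.5-fold, as did 37 of 4448 genes tested (0.832%). Of the 37, 11 were mitochondrially encoded, as the sorting measure requires, and among the other 26 genes Kcnq1ot1, Neat1 and Malat1 stood at places 2, 3 and 4 by size. Rsrp1 was level, at 72.4, 80.6, 70.6, 69.7 and 72.8 CPM. F630028O10Rik was at 15.5, 16.0, 17.8, 17.5 and 20.6 CPM, 1.31-fold. Malat1, Neat1 and Kcnq1ot1 thus passed the mark over all cells of the class, and Rsrp1 and F630028O10Rik did not.

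In the knockout library, with medians of 1.07% and 1.99% in the end groups, none of the 5 genes passed 1.5-fold, beside 49 of 4894 genes tested (1%). Malat1 was level, at 12463, 12435, 11963, 12031 and 12418 CPM. Neat1 was at 237, 270, 290, 296 and 339 CPM, 1.43-fold and upward at each step as in the wild type library. Kcnq1ot1 was at 133, 121, 109, 116 and 110 CPM, 0.823-fold, the opposite direction to the wild type library. Rsrp1 was at 0.893-fold and F630028O10Rik at 0.869-fold. The ranges of mitochondrial share differ: 35.6% of wild type cells lay below 0.5%, where only 13 knockout cells did, so the groups of the libraries cover different parts of the scale. Over cells, Spearman's rho of Malat1 with mitochondrial share was 0.322 over 4867 wild type cells and -0.018 over 5540 knockout cells. Mitochondrial UMIs are part of each cell's total, which links the measures, and cells of 1 library are not independent, so no test is given.

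**Figure D4:**
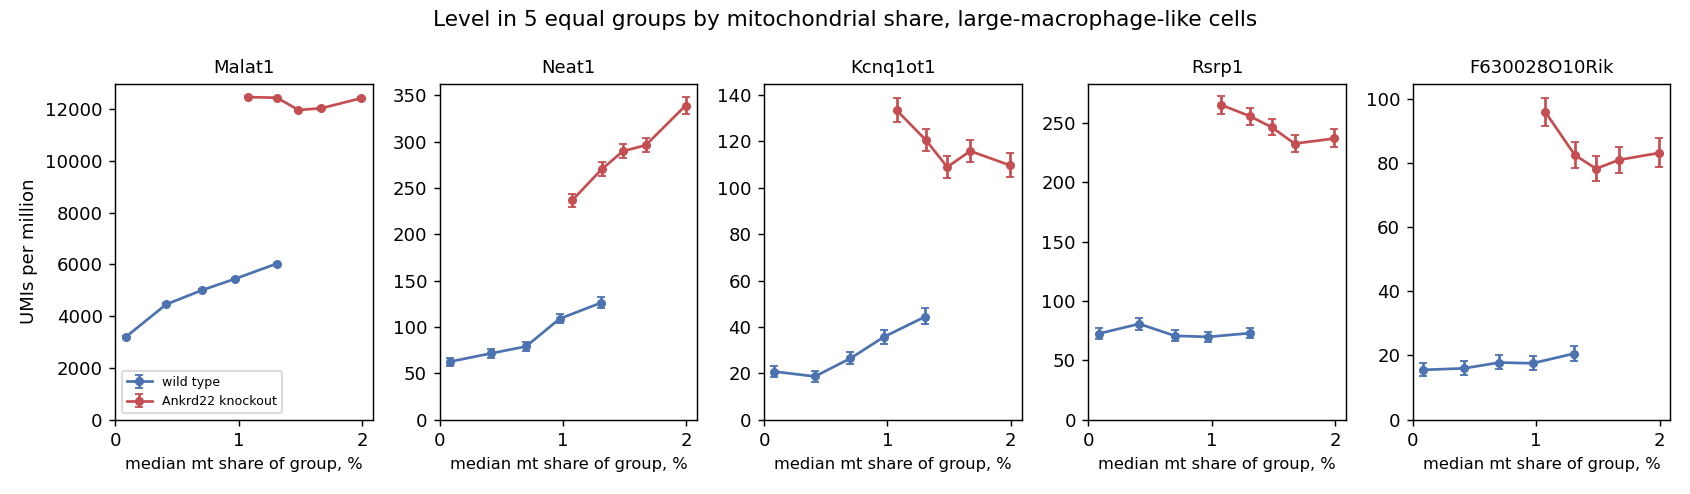
Level of each gene (vertical axis, CPM) in 5 equal groups of cells by mitochondrial share (horizontal axis, median share of the group, %) in large-macrophage-like cells of the wild type (blue) and knockout library (red), with exact 95% Poisson intervals. In the wild type library Malat1, Neat1 and Kcnq1ot1 climb from left to right, to 6022, 126 and 44.5, and Rsrp1 stays near 73; in the knockout library Neat1 alone climbs, from 237 to 339.

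The wild type gradient was present inside each of its large clusters. Malat1 was 1.49-fold (cluster 2) to 2.43-fold (cluster 3) higher in the highest than in the lowest group of the 5 clusters, Neat1 1.47-fold to 2.32-fold and Kcnq1ot1 1.45-fold to 3.05-fold. Rsrp1 was at 0.964-fold to 1.23-fold. F630028O10Rik varied between clusters, at 1.27, 1.5, 1.95 and 1.34-fold in clusters 2, 3, 4 and 6 and 0.893-fold in cluster 12. Inside the knockout clusters Malat1 was at 0.869-fold (cluster 1) to 1.45-fold (cluster 10) and Neat1 at 1.04-fold to 1.54-fold. Over all clusters, Malat1 in the lowest wild type group had a median of 1711 CPM per cell (10th to 90th percentile 288 to 8310), against 5532 (1965 to 11460) in the highest.

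UMIs per cell gave other patterns. From the lowest to the highest of 5 equal groups by UMIs, Malat1 went from 14709 to 11353 CPM in knockout cells (0.772-fold) and from 6173 to 4834 CPM in wild type cells (0.783-fold). Its share of the summed UMIs was thus largest in the shallowest group of both. Over single cells, Spearman's rho of Malat1 with UMIs per cell was -0.132 in knockout and 0.0197 in wild type cells. In the wild type library the lowest group alone stood apart, since the other 4 lay at 4541 to 4896 CPM. Kcnq1ot1 went the other way in the knockout library, at 82.7, 85.3, 105, 120 and 151 CPM (1.81-fold), and was the 1 gene of the group past 1.5-fold there, as were 3.84% of the genes tested. In the wild type library Kcnq1ot1 was at 32.3 and 36.5 CPM in the end groups, and none of the 5 passed 1.5-fold, beside 0.517% of the genes tested. F630028O10Rik was at 0.728-fold and 0.799-fold, Rsrp1 at 0.966-fold and 0.819-fold and Neat1 at 1.01-fold and 0.958-fold. By the 1.5-fold mark, Kcnq1ot1 thus followed depth among knockout cells and mitochondrial share among wild type cells. Over single wild type cells, not thinned, its Spearman's rho was 0.151 with UMIs per cell and 0.15 with mitochondrial share. Only 22.6% of these cells held a Kcnq1ot1 UMI, so a deeper cell could rank higher by detection alone. Among 4585 wild type cells thinned to equal depth, rho was 0.0451 with UMIs per cell before thinning and 0.0882 with mitochondrial share.

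The levels were then set side by side among cells of like mitochondrial share, in 8 of 10 bins that held at least 20 cells of each library (5524 knockout and 2801 wild type cells). The mean log2 ratio over these bins was 1.04 for Malat1 (0.65 to 1.28 between bins), 1.07 for Neat1 (0.41 to 1.39) and 1.48 for Kcnq1ot1 (0.23 to 2.38). Each lay below its ratio over all cells, 1.33, 1.64 and 1.95. Rsrp1 was at 1.75 (1.06 to 2.002), as over all cells, and F630028O10Rik at 2.06 (0.85 to 2.54), below its 2.20 over all cells. All 5 were at their lowest in the top bin, 1.84% to 9.87%, where Malat1 was at 12567 CPM in 939 knockout cells and 8036 CPM in 102 wild type cells. In that bin Kcnq1ot1 was at 111 and 94.8 CPM and Neat1 at 342 and 256 CPM, and the knockout level was the higher of the pair in every bin for each of the 5 genes. In bins of UMIs per cell the mean log2 ratios were 1.40, 1.69, 1.81, 1.75 and 2.28 for Malat1, Neat1, Kcnq1ot1, Rsrp1 and F630028O10Rik, and all 5 were past 2-fold in 10 of 10 bins. In bins of both measures (17 of 25) they were 1.14, 1.17, 1.49, 1.80 and 2.15. The lowest Neat1 value of the 17 was -0.10, in the bin of 1.63% to 9.87% mitochondrial share and 759 to 10339 UMIs. In that bin Kcnq1ot1 was at 0.067, and Malat1, Rsrp1 and F630028O10Rik were at 0.82, 1.055 and 1.30.

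**Figure D5:**
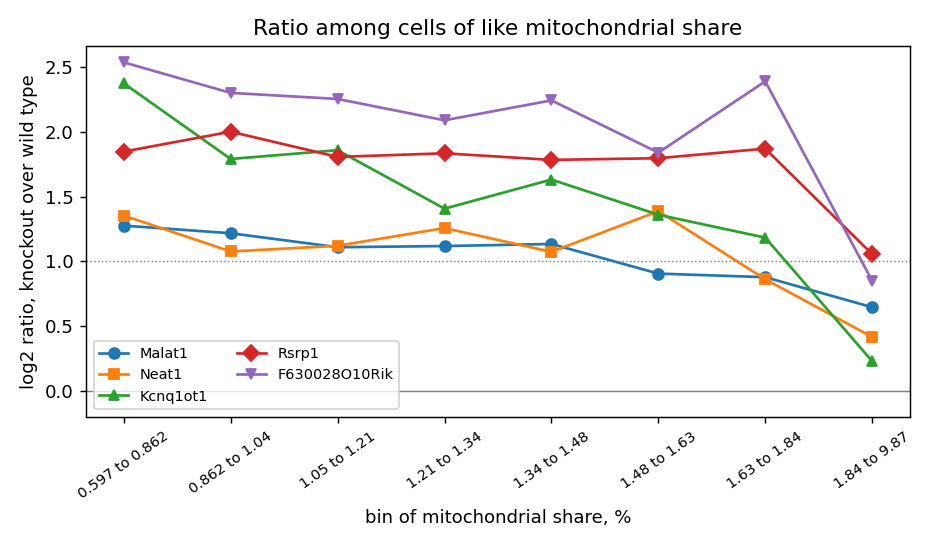
Log2 ratio of the knockout over the wild type level (vertical axis) in 8 bins of mitochondrial share (horizontal axis, %) of large-macrophage-like cells, for 5 genes. The dotted line marks 2-fold; Rsrp1 stays at 1.78 or above in the first 7 bins, Malat1 moves from 1.28 to 0.65 and Kcnq1ot1 from 2.38 to 0.23.

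The barcodes left out for more than 10% mitochondrial UMIs carried the group at high summed levels. In 269 such knockout barcodes, with 252739 UMIs in all, Malat1 was at 50289 CPM, Neat1 at 1721, Kcnq1ot1 at 728, Rsrp1 at 467 and F630028O10Rik at 439 CPM. In the 23 wild type barcodes Malat1 was at 39215 CPM (36633 to 41931) and Neat1 at 1647 CPM (1154 to 2281), from 36 UMIs. Kcnq1ot1 had 8 UMIs, Rsrp1 7 and F630028O10Rik 0 there. These sums rest on a part of the barcodes, whose median depth was 722 UMIs (knockout) and 636 (wild type). Per barcode, Malat1 had a median of 12750 CPM (quartiles 3306 and 62458) in knockout and 16043 CPM (3136 and 51978) in wild type barcodes, and the median of Neat1 was 0 in both.

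The genes most like Malat1 from cell to cell were found by Spearman's rho over large-macrophage-like cells thinned to 5000 UMIs (5423 knockout and 4585 wild type cells), ranked among 2064 genes by the lower rho of the 2 libraries. Neat1 came first, at 0.187 in knockout and 0.265 in wild type cells. It was followed by Zeb2, a transcription factor gene (0.134 and 0.152), the lubricin gene Prg4 (0.258 and 0.118), mt-Nd5 (0.0926 and 0.256) and Dennd4a (0.092 and 0.276). For Neat1 the list was Malat1, Zeb2 (0.164 and 0.175), Gm42418 (0.173 and 0.132), Ahnak (0.226 and 0.126) and Gda (0.128 and 0.114). The median gene had a rho of -0.00849 and -0.0082 with Malat1. Malat1 and Kcnq1ot1 were at 0.085 and 0.192, and every pair with Rsrp1 or F630028O10Rik was at 0.072 or below, a value reached by Malat1 with Rsrp1. These are descriptions over cells that share a library and its depth, and all are weak.

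Genes for other nuclear RNAs and for proteins of the same bodies were compared at 1.5-fold. Over all 8462 genes that averaged 5 CPM or more, 12.5% were higher by that mark in knockout cells and 3.5% lower, around a median log2 ratio of 0.21. Among 9 measured of 30 other nuclear or long noncoding RNAs, 1 was 1.5-fold higher, Gm42418 (3019 and 1377 CPM, log2 1.13), a locus known to collect ribosomal RNA reads. Tug1 was at 21.2 and 19 CPM, and Dleu2 at 91.8 and 61.9 CPM. The median of the 9 was 0.30. Host genes of small nucleolar RNAs leaned the other way: 1 of 14 was higher and 2 lower, with a median of -0.26, and Gas5 was at 423 and 577 CPM.

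Of 22 genes for paraspeckle proteins, the partners of Neat1, 2 were 1.5-fold higher and none lower, with a median of 0.28. Hnrnpr, below that mark, was at 68.45 and 46.29 CPM (log2 0.55). Of 12 SR protein genes, which encode splicing factors of the speckles that hold Malat1, none was higher and 1 lower, with a median of -0.03. That gene was Srsf5, at 152.7 and 296.4 CPM (log2 -0.95). Of 24 genes for speckle scaffolds and splicing cofactors, 4 were higher and none lower (median 0.32), namely Prpf4b, Luc7l2, Rbm25 and Luc7l3, at log2 0.79, 0.67, 0.65 and 0.62. Of 19 genes known for introns held in the nucleus, 4 were higher and 1 lower (median 0.17). Ogt was at 43.7 and 23.7 CPM and Ccnl1 at 79.5 and 182.1 CPM. On the TMM scale every ratio in these lists is lower by 0.29, and 3.82% of all 8462 genes are 1.5-fold higher and 7.88% lower. None of the speckle scaffold and held intron genes is then higher, and 0 and 2 are lower. Lower genes number 3 of 12 in the SR list, 6 of 14 among the small nucleolar RNA hosts and 2 of 9 among the noncoding RNAs, while Gm42418 and 2 paraspeckle genes are still higher. The medians of the paraspeckle and held intron lists, and of the chromosome 19 neighbours below, turn to under 0.

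Neighbours on the chromosome were mostly under 1.5-fold apart. Of 14 measured neighbours of Malat1 and Neat1 on chromosome 19, 1 was 1.5-fold higher and none lower (median 0.02). In the imprinted Kcnq1 domain 5 of 12 genes were measured, with 1 higher and 1 lower (median 0.44). The higher gene was Nap1l4, at 54.4 and 35.9 CPM (log2 0.59), and the lower was Cdkn1c, at 11.5 and 18.7 CPM (log2 -0.66), named after its value was seen. Tspan32 was at 88.7 and 63.9 CPM and Cd81 at 264.3 and 255.7 CPM. On the TMM scale Cdkn1c alone of these neighbours was past 1.5-fold. Kcnq1, which overlaps Kcnq1ot1 on the other strand, had 12 and 11 UMIs in all barcodes. Whether counting used strand is not given in the sources used here. In the Dlk1 to Dio3 domain of Meg3, 1 of 7 genes was measured, Wars, at 37.9 and 28.3 CPM. Markers of fibroblasts, Col1a1, Col1a2, Col3a1 and Pdgfra, had 0 UMIs in both libraries, and Dcn had 3 and 1.

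All 13 mitochondrially encoded protein genes were past 1.5-fold toward the knockout (median log2 1.03; 9 of 13 on the TMM scale), beside the Malat1 ratio of 1.33, and 0 of 83 cytosolic ribosomal protein genes were 1.5-fold apart (median -0.01). mt-Nd5 was at 651.9 and 253.1 CPM. In the wild type library the noncoding RNAs that followed mitochondrial share were joined by Dleu2 (1.86-fold) and Gm26917 (1.89-fold) of the noncoding list and by Ogt (1.79-fold) of the list of held introns. In the knockout library Dleu2 and Ogt were level, at log2 -0.05 and 0.05, while Gm26917 was again higher in the highest group, at 0.59. The 26 wild type genes outside the mitochondrial genome were led by Gm38299 (17.3 to 42.9 CPM), which was chosen after its value was seen and went from 31.4 to 52.5 CPM in the knockout library.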

How the data were processed

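F4/80+ peritoneal cells of 1 knockout and 1 wild type library were measured with 10x Genomics Single Cell 3' version 3 chemistry. The deposited values are UMI counts of genes in barcodes. Per the file headers, Cell Ranger 6.1.2 produced them. The submitters' processing notes also list bcl2fastq, Seurat 4.1.0 and the build mm9; the gene identifiers all matched GENCODE M21 (GRCm38), which was used for positions and sequences. Whether introns were counted is not given in the sources used here.

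Cells needed at least 500 genes and at most 10% mitochondrial UMIs, which removed 346 knockout and 56 wild type barcodes. Scrublet's automatic thresholds marked 1 barcode in each library, under the 0.5% taken as working, so the top-scored 5.09% and 5% were removed. Cells of both libraries were clustered together (scanpy 1.11.5, 2000 variable genes without the 6 genes and the mitochondrial genes, 30 components, 15 neighbours, Leiden resolution 1) and named from at least 3 fixed markers at 2-fold and in 10% of cells, or, for large macrophages, from markers in 25% of cells. Classes of 20 cells or more were compared.

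UMIs were summed per class and library and scaled to CPM. Intervals are exact and cover counting error only; sequencing had a stated minimum of 20000 reads per cell. Genes at 20 CPM or more were counted as apart at 2-fold between libraries and at 1.5-fold between the end groups within one. With 1 library per genotype no test was made. The 2-fold and 1.5-fold counts and the intervals were tested on simulated data. The 6 genes, the gene lists and these comparisons were chosen with earlier results of these data known. Genes named from a list are the up to 4 with the largest ratio in either direction among those with a mean of at least 20 CPM, and the 5 most like Malat1 or Neat1 had at least 50 CPM. Not every gene this rule names is reported here. Alternatives covered scaling (edgeR 4.0.16 for TMM), pseudocount, filters, clustering, matching and grouping.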

Additional observations from a re-analysis of the deposited data

Results flagged for a closer look

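Kcnq1ot1 was flagged because its relation to mitochondrial share ran in opposite directions in the 2 libraries. The log2 level in the highest over the lowest of 5 equal groups of large-macrophage-like cells was -0.2807 in the knockout library (counting interval -0.37 to -0.19) and 1.065 in the wild type library (0.90 to 1.31). F630028O10Rik was flagged for the same reason, at -0.2033 (-0.31 to -0.10) and 0.3874 (0.15 to 0.67). Its knockout direction was not the same in every cluster, at 0.847-fold and 0.819-fold in clusters 0 and 5 and 1.18, 1.07 and 1.04-fold in clusters 1, 7 and 10. With 10 groups of cells in place of 5, its knockout value was -0.04. The knockout direction of Kcnq1ot1 was not uniform either, at 0.899, 0.774, 0.81 and 0.944-fold in clusters 0, 1, 5 and 7 and 1.38-fold in cluster 10. The difference between the libraries was not tested, since each genotype had 1 library. The groups also span different mitochondrial shares, with medians of 1.07% to 1.99% in the knockout and 0.0834% to 1.31% in wild type cells. The end bins common to both libraries were 0.597% to 0.862% and 1.84% to 9.87%. Between them Kcnq1ot1 went from 141 to 111 CPM in knockout and from 26.4 to 94.8 CPM in wild type cells. F630028O10Rik went from 105 to 80.9 CPM and from 17.3 to 44.4 CPM. The part of the unlike ranges was not tested.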

How the results depend on the processing

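The count of 5 genes past 2-fold held in all 18 alternatives run, 3 of them chosen after seeing the data (cells with at least 0.5% mitochondrial UMIs, without shared barcodes, without the Hspa1a-led wild type cluster). The genes were chosen on this contrast, so the count describes them and tests nothing. Matched settings use the mean over bins. Of 8 bins of mitochondrial share, Malat1 was past 2-fold in 5, Neat1 in 6, Kcnq1ot1 and F630028O10Rik in 7 and Rsrp1 in 8. Log2 ratios ranged from 1.04 to 1.55 for Malat1, 1.07 to 2.64 for Neat1, 1.48 to 5.88 for Kcnq1ot1, 1.46 to 2.09 for Rsrp1 and 1.91 to 5.79 for F630028O10Rik. The highest values are those of the median over cells, where the wild type median of Kcnq1ot1 and F630028O10Rik is 0, so these are no measure of size. The lowest are those matched on mitochondrial share for Malat1, Neat1 and Kcnq1ot1, and median of ratios scaling for the other pair. Of 90 log2 ratios, 42 moved beyond their counting interval and 0 changed sign. The count of genes past 1.5-fold with mitochondrial share in the knockout library was 1 in place of 0, Neat1, with 10 groups of cells in place of 5 (log2 0.75) and without the mitochondrial filter (log2 0.62). With UMIs per cell it was 0 in place of 1 without that filter, where Kcnq1ot1 had a log2 of 0.57. F630028O10Rik with UMIs per cell in the wild type library was -0.32 over all cells and 0.01105 among cells of middle mitochondrial share (1 of 3 equal groups); the cause was not tested. Among cells of middle UMI counts, 4 genes in place of 3 passed 1.5-fold with mitochondrial share in the wild type library; the added gene was F630028O10Rik, at a log2 of 0.76. The list counts on the TMM scale were also chosen after seeing the data. The small-macrophage-like class changed in size with the clustering. At Leiden resolution 0.5 its main cluster held 1472 knockout and 8 wild type cells. Its main knockout and wild type clusters held 846 and 806 cells of their own library with the 6 genes and mitochondrial genes kept in. Without doublet removal they held 286 and 1795. The levels given for that class are those of the main clustering. No paired analysis was possible because each genotype had 1 library. At 39 and 39 B-cell-like cells, depth leaves Neat1, Kcnq1ot1 and Rsrp1 with wide intervals, and Meg3, with 1 UMI in each library, allows no comparison.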

Other observations

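Other genes followed mitochondrial share in each library. Among knockout large-macrophage-like cells, 36 of 4880 genes outside the mitochondrial genome (0.738%) were at least 1.5-fold higher in the highest than in the lowest group, and none was of the 6 described above. The largest was Egr1, an immediate early transcription factor gene, at 192.2 and 418 CPM, and Zfp36, which encodes an mRNA decay factor, was at 277.3 and 526.5 CPM. Dusp1, a MAP kinase phosphatase gene, was at 665.8 and 1231 CPM and Fos at 695.8 and 1245 CPM. The same 4 genes had log2 values of 0.22, 0.21, 0.17 and 0.05 between the end groups of the wild type library, where 26 of 4437 genes (0.586%) passed. The difference between the libraries was not tested, and these 4 genes were picked after their values were seen.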
